A study of Mus musculus with 4 samples.

Results

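The genes described here encode growth factors that act on blood and lymphatic vessels. They were chosen by name, as the probes of a mouse expression array whose gene symbol was Vegfa, Vegfb, Vegfc, Figf (now Vegfd), Pgf, Agpt2 (now Angpt2), Pdgfa, Pdgfb, Fgf2 or Hgf, in current or older spelling. This gave 11 of the 33012 probes on the array for 10 genes, with 2 probes for Vegfa and 1 for each of the other 9. RNA was measured in 4 cultured melanoma lines of the C57Bl6 strain, with 1 labelled array per line. B16 was the parental line. B16-RI was grown out of lymph node metastases that formed after B16F1 cells had been injected into the skin of the back of C57BL6 mice. B16-RI cells were injected in turn, and B16-RII came from the lymph node metastases of this round 2 and B16-RIIL from its lung metastases. All lines were kept in medium with 20% fetal bovine serum, and RNA of 2 passage numbers was pooled for each line. No line carried an engineered allele and none was given an agent. The cells were measured in culture and not in a tumour, and the sources used here do not say from how many mice a line was isolated.

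Vascular endothelial growth factors are secreted dimers that bind receptor tyrosine kinases on endothelium. VEGF-A, the product of Vegfa, acts mainly through Kdr and Flt1 on blood vessels and is a classical target of the hypoxia-inducible factors, whereas VEGF-C and VEGF-D act through Flt4 on lymphatic endothelium once proteases have trimmed them, with Nrp2 as a co-receptor. Angiopoietin 2 is a ligand of Tek, the platelet-derived growth factors act on pericytes and fibroblasts, and Fgf2 and Hgf are broad mitogens and motility factors for endothelial and other cells. Tumour cells that secrete VEGF-C or VEGF-D are well known to draw lymphatic vessels towards them, which is why these ligands bear on lines selected by spread to lymph nodes.

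A probe counted as detected on an array where its signal stood at least 3 times above the noise (S/N) and its error flag was no higher than 5000. Where only 1 of the arrays compared detected a probe, the fold is written as at least N-fold. Such a bound is nominal, since the undetected side was not set to the detection limit of the probe itself. The ratio may be smaller. Between 13872 and 14855 probes were detected per array, and 11604 on every array. Values are the normalized signal deposited for each probe, which has no fixed unit and is comparable between arrays for 1 probe but not between probes. On this scale the commonly detected probes as a whole sat above B16, by a median log2 difference of 0.21 in B16-RI, 0.41 in B16-RII and 0.22 in B16-RIIL, and each gene's difference has to be read against that shift. It was also unequal between the 2 sets of probes that the deposited values had scaled separately, being 0.46 in the first set and -0.01 in the second set in B16-RIIL. Differences were therefore also computed from raw signals that were quantile normalized, scaled to the median or scaled to the 75th percentile, and after both probe sets had been centred separately. The table also holds a second array per line, which matches no labelled sample and was not used here, although the methods describe biological duplicates of each line. With the 1 labelled array per line no difference has a replicate check, and no test between lines was made. Of 8 melanocyte markers 6 were on the array, and all 6 were detected in every line and none differed 2-fold from B16. Most markers of other cell types were not detected. None of the 8 endothelial markers was detected on B16, and Cdh5, Lyve1, Prox1, Emcn, Esam and Cldn5 were detected on no array. The summed normalized signal of the 8 was 5.85 in B16, 9.80 in B16-RI, 10.5 in B16-RII and 7.40 in B16-RIIL, with Pecam1 detected on B16-RII and B16-RIIL and Pdpn on the passaged arrays. Against B16, Pecam1 was higher by at least 4.69-fold in B16-RII and 1.96-fold in B16-RIIL, and Pdpn at least 2.08-fold in B16-RI, 2.47-fold in B16-RII and 1.44-fold in B16-RIIL. The S/N of Pecam1 was 4.15 in B16-RII and 3.95 in B16-RIIL. Over the scalings the log2 bound of Pdpn went down to 0.92 in B16-RI and 0.78 in B16-RII, under 2-fold. Such sums are comparable only between arrays. The 6 fibroblast markers summed to between 12.9 and 21.7 with at most 3 detected, the 6 macrophage markers to between 7.25 and 8.64 with at most 2 detected, and the 4 lung epithelial markers to between 2.65 and 5.57 with at most 2 detected. The fibroblast marker Col1a2 was detected in every line, with a normalized signal of 6.32 in B16, 15.0 in B16-RI, 7.40 in B16-RII and 16.7 in B16-RIIL, and was 2.37-fold B16 in B16-RI and 2.64-fold in B16-RIIL, which fell under 2-fold with some scalings. Col1a1, another fibroblast marker, went the other way, at least 2.57-fold lower in B16-RI, 1.58-fold lower in B16-RII and 1.45-fold lower in B16-RIIL. Of the lung epithelial markers, Sftpb was at least 2.41-fold, 2.28-fold and 2.71-fold lower than B16 in B16-RI, B16-RII and B16-RIIL, and Epcam at least 2.94-fold and 4.14-fold lower in B16-RI and B16-RII and 1.37-fold higher in B16-RIIL. On B16 their S/N was only 3.92 and 3.31, and the direction of Epcam in B16-RIIL turned with the scaling. Scgb1a1, of the same list, was detected on B16-RIIL alone, with an S/N of 4.88, and was higher there by at least 1.96-fold, and Sftpc was not detected. The part of such cells in the values below was not tested.

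Of the 10 ligand genes, 6 were detected on at least 1 array and 4 on none. Vegfb, Vegfc, Agpt2, Pdgfa and 1 of the probes of Vegfa were detected in every line, Fgf2 was detected in B16-RIIL alone, and Figf, Pgf, Pdgfb and Hgf were not detected in any line. Vegfa was lower in each passaged line than in B16 by both probes, and Vegfc was higher in the lines of round 2. Counted by probe, 1 of the ligand probes was at least 2-fold below B16 in B16-RI, against 9.34% of all probes detected on at least 1 of the arrays compared. In B16-RII there were 2, both of Vegfa, against 7.60% of all such probes, and in B16-RIIL there were 0, against 8.41%. In the other direction, the 0 ligand probes in B16-RI stand against 10.2% of all probes, the 0 in B16-RII against 13.1%, and the 1 in B16-RIIL, of Fgf2, against 12.7%. As few ligand probes could be called, these shares are a background for reading the counts and nothing more.

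**Figure D1:**
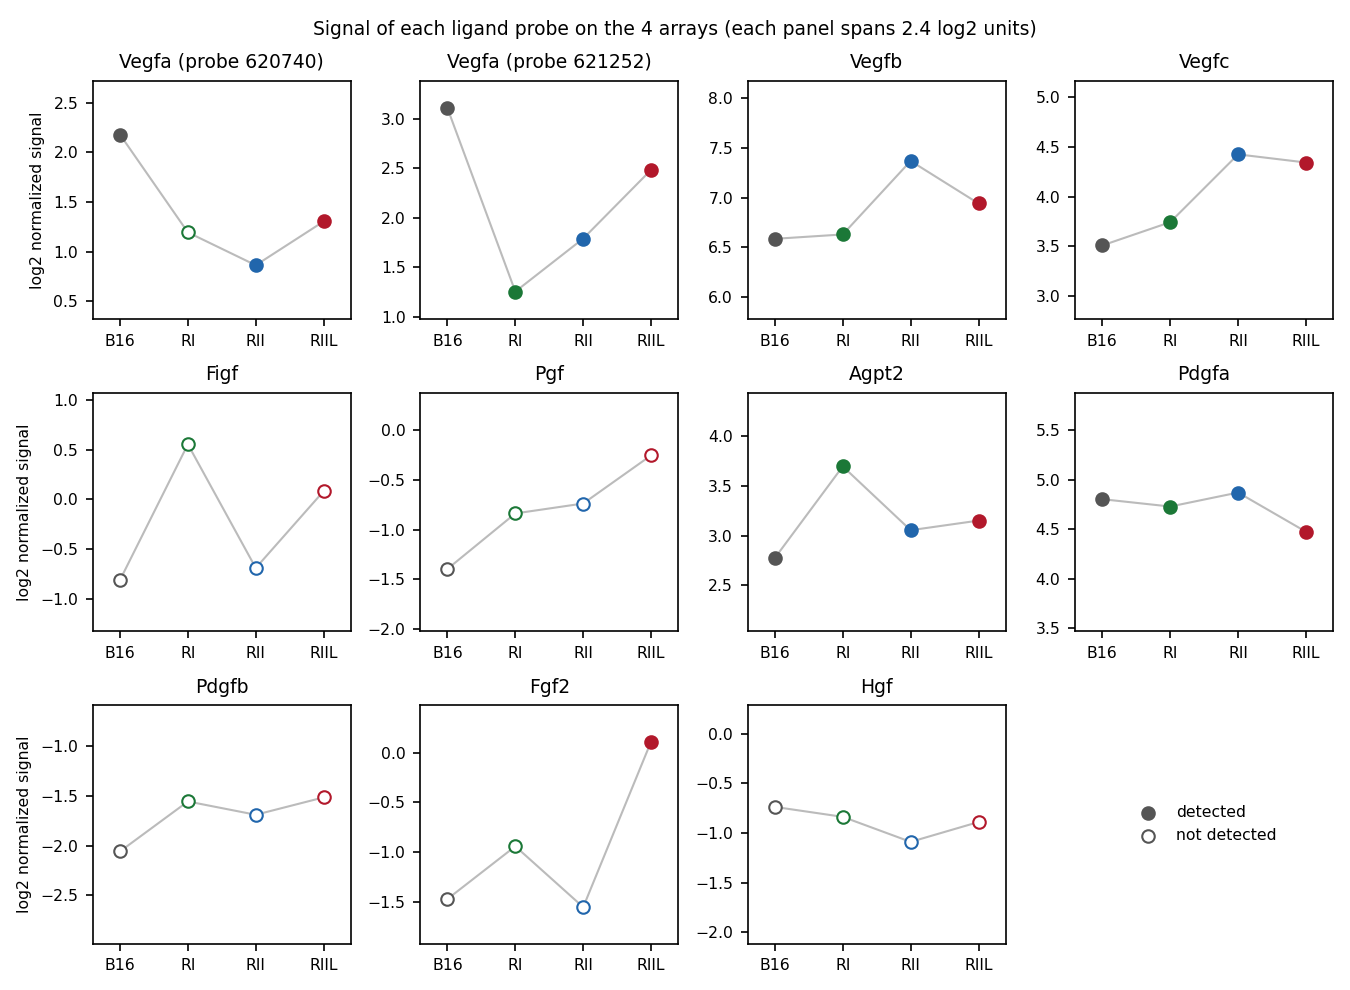
Log2 of the normalized signal (vertical axis) of each of the 11 ligand probes on the B16, B16-RI, B16-RII and B16-RIIL arrays (horizontal axis), 1 array per line, so there are no error bars. Filled points are detected and open points are not. Both Vegfa probes are lower on the passaged arrays than on B16, Vegfc is higher, Agpt2 is highest on B16-RI, and the probes in the panels of Figf, Pgf, Pdgfb and Hgf are open throughout.

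Vegfa, listed under the identifier mCG2676.2, encodes the main growth factor of blood vessels. Its probe 621252 had a normalized signal of 8.60 in B16, 2.39 in B16-RI, 3.46 in B16-RII and 5.59 in B16-RIIL, with an S/N of 12.27, 4.0, 3.54 and 10.72. Probe 620740 had a normalized signal of 4.53 in B16, 2.29 in B16-RI, 1.82 in B16-RII and 2.47 in B16-RIIL, with an S/N of 11.37, 2.15, 3.89 and 3.14. B16 was thus the highest of the lines by both probes. Among the passaged lines B16-RI was lowest by the first, and by the second no place can be given to B16-RI, where its signal was under the detection limit. By probe 621252 the signal in B16 was 3.60 times that in B16-RI, 2.49 times that in B16-RII and 1.54 times that in B16-RIIL, or log2 differences from B16 of -1.85, -1.31 and -0.62. By probe 620740 it was at least 1.98 times that in B16-RI, where the probe was not detected, 2.49 times that in B16-RII and 1.83 times that in B16-RIIL, or log2 differences of -0.98 as a bound, -1.32 and -0.88. The probes gave like sizes in B16-RII. In B16-RI the second probe was not detected, so its ratio cannot be set against that of the first.

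The lower Vegfa signal kept its direction in every passaged line under all 5 scalings. Over these the log2 difference of probe 621252 lay between -2.24 and -1.85 in B16-RI, between -1.74 and -1.17 in B16-RII and between -1.14 and -0.57 in B16-RIIL. For probe 620740 the range was -1.13 to -0.98, -1.84 to -1.32 and -1.11 to -0.87, so in B16-RIIL each probe crossed the 2-fold limit with some scalings and not with others. Among the 12168 probes detected on both B16 and B16-RI, 0.148% had a lower difference than probe 621252. In B16-RII, 0.521% of 12674 probes lay below this probe and 0.513% below probe 620740. In B16-RIIL, 6.0% of 12561 probes lay below the first and 2.6% below the second, and within the probe set of each the shares were 2.47% and 4.07%. Vegfa thus stood far down in the distribution in B16-RI and B16-RII and less far in B16-RIIL. Between the lines of round 2, Vegfa was higher in B16-RIIL than in B16-RII, 1.62-fold by probe 621252 and 1.36-fold by probe 620740. Both probes kept this direction under all 5 scalings, with log2 differences between 0.59 and 0.69 and between 0.44 and 0.86.

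Vegfc, listed under mCG8109.3, encodes the chief lymphatic growth factor. Its probe, 405884, had a normalized signal of 11.4 in B16, 13.4 in B16-RI, 21.5 in B16-RII and 20.3 in B16-RIIL, with an S/N between 40.9 and 52.88. The signal was close in B16 and B16-RI and close again in the lines of round 2, at a higher level. Against B16 it was 1.18-fold in B16-RI, 1.89-fold in B16-RII and 1.78-fold in B16-RIIL, or 0.23, 0.92 and 0.84 log2 units, and so under the 2-fold limit in each. The difference stayed above 0 under all 5 scalings, but its size depended on them, from 0.06 to 0.23 in B16-RI, from 0.33 to 0.92 in B16-RII and from 0.55 to 0.84 in B16-RIIL. In B16-RII, where quantile normalization gave the 0.33, 91.0% of the probes detected on both arrays had a lower difference than Vegfc, and in B16-RIIL 89.7% did, whereas in B16-RI 52.8% did and Vegfc lay near the shift of all probes. Within the probe set that holds Vegfc, the share was 70.9% in B16-RI, 91.1% in B16-RII and 96.2% in B16-RIIL, so that Vegfc stood high in its set in the lines of round 2. Which of B16-RII and B16-RIIL was higher turned with the scaling, since the log2 difference between them ran from -0.08 to 0.34.

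Vegfc lies on chromosome 8, and 403 genes of this chromosome were detected on every array. With centred probe sets, their median log2 difference from B16 was 0.06 in B16-RI, 0.09 in B16-RII and 0.36 in B16-RIIL, while that of all genes lay between -0.00 and 0.04. On that scale Vegfc was at 0.23, 0.49 and 0.83, and 90.3% of the chromosome 8 genes had a lower difference than Vegfc in B16-RII and 90.3% in B16-RIIL. Agpt2, on the same chromosome, was at 0.53, -0.15 and -0.14 and thus below the median of the chromosome in both lines of round 2. The part of the chromosome in these values was not tested.

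The lymphatic and the blood vessel ligand lay apart in their differences from B16 within the same arrays. The Vegfc probe and Vegfa probe 620740 lie in 1 probe set, so any constant by which an array is divided drops out when their differences from B16 are set against each other. Vegfc relative to this Vegfa probe was at least 2.33 times its B16 value in B16-RI, 4.70 times in B16-RII and 3.27 times in B16-RIIL. The B16-RI value is a nominal bound, as the Vegfa probe was not detected there. With Vegfa probe 621252, of the other set, the values were 4.23, 4.69 and 2.74 times. Over the 5 scalings the measured log2 values lay between 1.38 and 2.47, with the lowest in B16-RIIL. These ratios show unequal differences of a pair of transcripts and not how many copies of either were present.

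The promoters of Vegfa and Vegfc are shown because these ligands lay on opposite sides of the bulk of the probes in both lines of round 2. Of the 10 ligand genes, 8 had a promoter in the RefSeq table of GRCm38.p6, with 2 start sites for Vegfa, of which the one listed first is shown. The array measures transcripts and not promoters, so the sequences are given as context. Each runs 5′ to 3′ along the strand of the gene across the start site, with the GC box in capitals, that is GGGCGG or, on the other strand, CCGCCC.
Vegfa, chr17:46032328-46032627, minus strand: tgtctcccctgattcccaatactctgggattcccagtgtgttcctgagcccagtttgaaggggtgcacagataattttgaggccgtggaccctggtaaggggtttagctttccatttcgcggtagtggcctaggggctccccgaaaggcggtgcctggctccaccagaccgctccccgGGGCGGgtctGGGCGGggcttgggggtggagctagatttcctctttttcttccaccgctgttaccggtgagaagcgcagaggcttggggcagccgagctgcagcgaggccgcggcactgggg
Vegfc, chr8:54077282-54077581, plus strand: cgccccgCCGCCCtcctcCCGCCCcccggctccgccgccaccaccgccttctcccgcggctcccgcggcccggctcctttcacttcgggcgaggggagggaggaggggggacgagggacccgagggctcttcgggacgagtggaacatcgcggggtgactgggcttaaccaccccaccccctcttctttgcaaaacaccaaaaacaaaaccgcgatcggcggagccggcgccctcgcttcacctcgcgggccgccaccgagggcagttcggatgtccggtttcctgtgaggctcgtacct
Both windows held 2 GC boxes, those of Vegfa at -72 and -62 and those of Vegfc at -243 and -232 from the start site, and 35.7% of all 32851 promoter windows of this length held at least 1. The core of the hypoxia response element, ACGTG or GCGTG on either strand, was in neither window and in 43.8% of all windows, which says only that these letters were not found there.

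Vegfb encodes a ligand of Flt1 with a role in heart and fat tissue. Its probe, 791646, had a normalized signal of 96.1 in B16, 99.0 in B16-RI, 165 in B16-RII and 123 in B16-RIIL, with an S/N of at least 74.21. B16 and B16-RI differed little, and B16-RII was highest. Against B16 the signal was 1.72-fold in B16-RII and 1.28-fold in B16-RIIL, or 0.78 and 0.36 log2 units, and 84.8% and 81.1% of its probe set had a lower difference. With centred probe sets the values were 0.36 and 0.35. Quantile normalization gave 0.09 and 0.05, and in B16-RI the direction turned with the scaling, from -0.29 to 0.04. Figf, the gene of VEGF-D, gave a normalized signal of 0.57, 1.47, 0.62 and 1.06 in B16, B16-RI, B16-RII and B16-RIIL with an S/N of at most 0.44, so no order of the lines can be read. Pgf, the gene of placental growth factor, gave 0.38, 0.56, 0.60 and 0.84 with an S/N of at most 2.36 and was under the detection limit throughout.

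Agpt2, the gene of angiopoietin 2, had a normalized signal of 6.85 in B16, 13.0 in B16-RI, 8.31 in B16-RII and 8.89 in B16-RIIL, with an S/N of 7.51, 19.19, 9.84 and 8.76. B16-RI stood above the other 3 lines, which lay close together. The signal was 1.89-fold B16 in B16-RI, or 0.92 log2 units, and it was between 0.53 and 0.92 over the 5 scalings. In the lines of round 2 the differences of 0.28 and 0.38 went to -0.15 and -0.14 with centred probe sets, so their direction turned. Among the probes detected on both arrays 95.5% had a lower difference than Agpt2 in B16-RI, 38.0% in B16-RII and 62.9% in B16-RIIL, and within its own probe set 93.2%, 38.3% and 43.1%. Agpt (Angpt1), which encodes the activating ligand of the same receptor, was not detected in any line, with a normalized signal of 1.16, 0.55, 0.37 and 0.61 and an S/N of at most 1.87.

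Pdgfa encodes the A chain of platelet-derived growth factor. Its normalized signal was 27.9 in B16, 26.5 in B16-RI, 29.2 in B16-RII and 22.2 in B16-RIIL, with an S/N of at least 37.2. On the deposited scale the lines lay close together. The log2 difference from B16 was -0.07, 0.07 and -0.33, and in B16-RII it turned negative under the other 4 scalings, down to -0.58. Within its probe set, 34.6% of the probes detected on both arrays had a lower difference than Pdgfa in B16-RI, 21.5% in B16-RII and 23.6% in B16-RIIL. Pdgfb, which encodes the B chain, gave normalized signals between 0.24 and 0.35 with an S/N of at most 0.27 and was not detected.

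Fgf2, which encodes basic fibroblast growth factor, was detected in B16-RIIL alone, with a normalized signal of 1.08 and an S/N of 4.66. It was 0.36 in B16, 0.52 in B16-RI and 0.34 in B16-RII, with an S/N of at most 1.21. B16-RIIL was at least 3.0-fold above B16, and at least 2.92-fold above B16-RII, and under the 5 scalings the bound against B16 lay between 1.36 and 1.62 log2 units. This was the 1 ligand probe at least 2-fold higher in B16-RIIL than in B16-RII, against 7.67% of all probes, and 0 were at least 2-fold lower, against 9.40%. With an S/N limit of 5 the Fgf2 probe was not detected and both calls were lost. Probes detected on B16-RIIL alone numbered 1190, which is 6.37% of those detected on any array, and 74.0% of them had an S/N under 5. Hgf, the ligand of Met, gave normalized signals between 0.47 and 0.60 with an S/N of at most 0.23 and was not detected in any line.

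**Figure D2:**
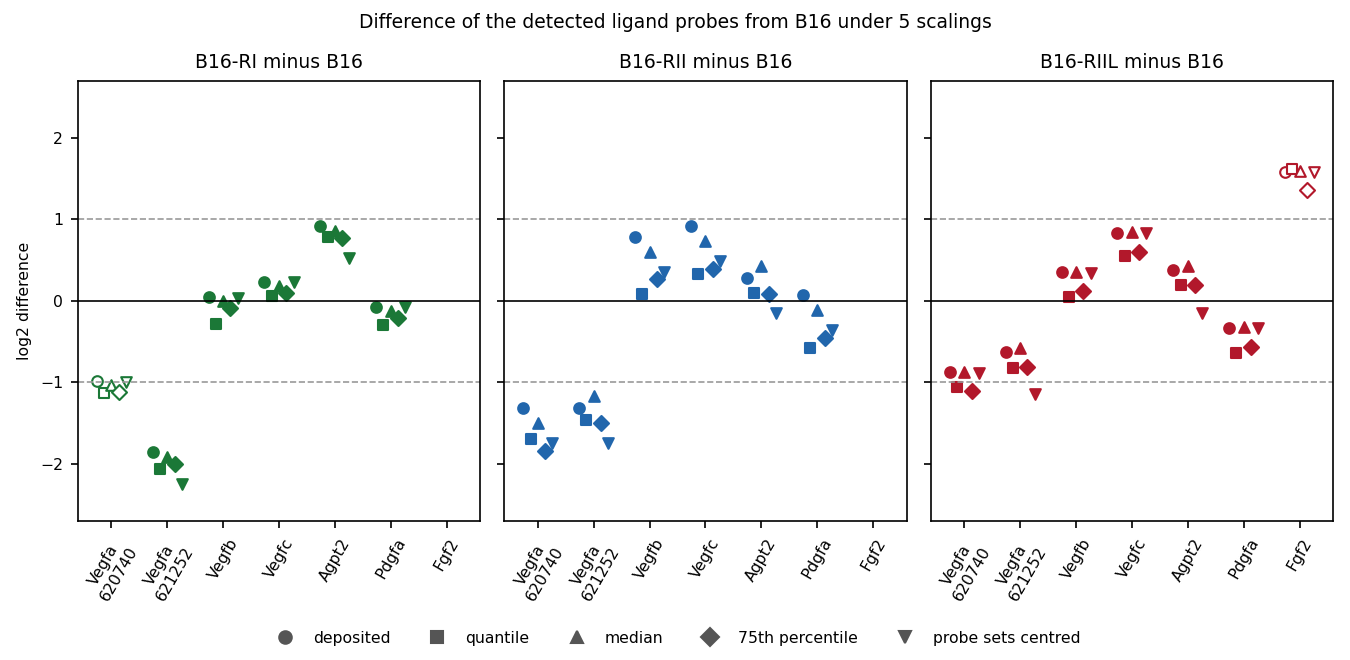
Log2 difference from B16 (vertical axis) of the 7 ligand probes detected on at least 1 array (horizontal axis), in 1 panel per passaged line, with a marker for each of the 5 scalings. Open markers are nominal bounds, where 1 of the arrays did not detect the probe, and dashed lines mark 2-fold. Vegfa stays below 0 and Vegfc above 0 under each scaling, whereas Vegfb in B16-RI, Agpt2 in B16-RII and B16-RIIL, and Pdgfa in B16-RII lie on both sides of 0.

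**Figure D3:**
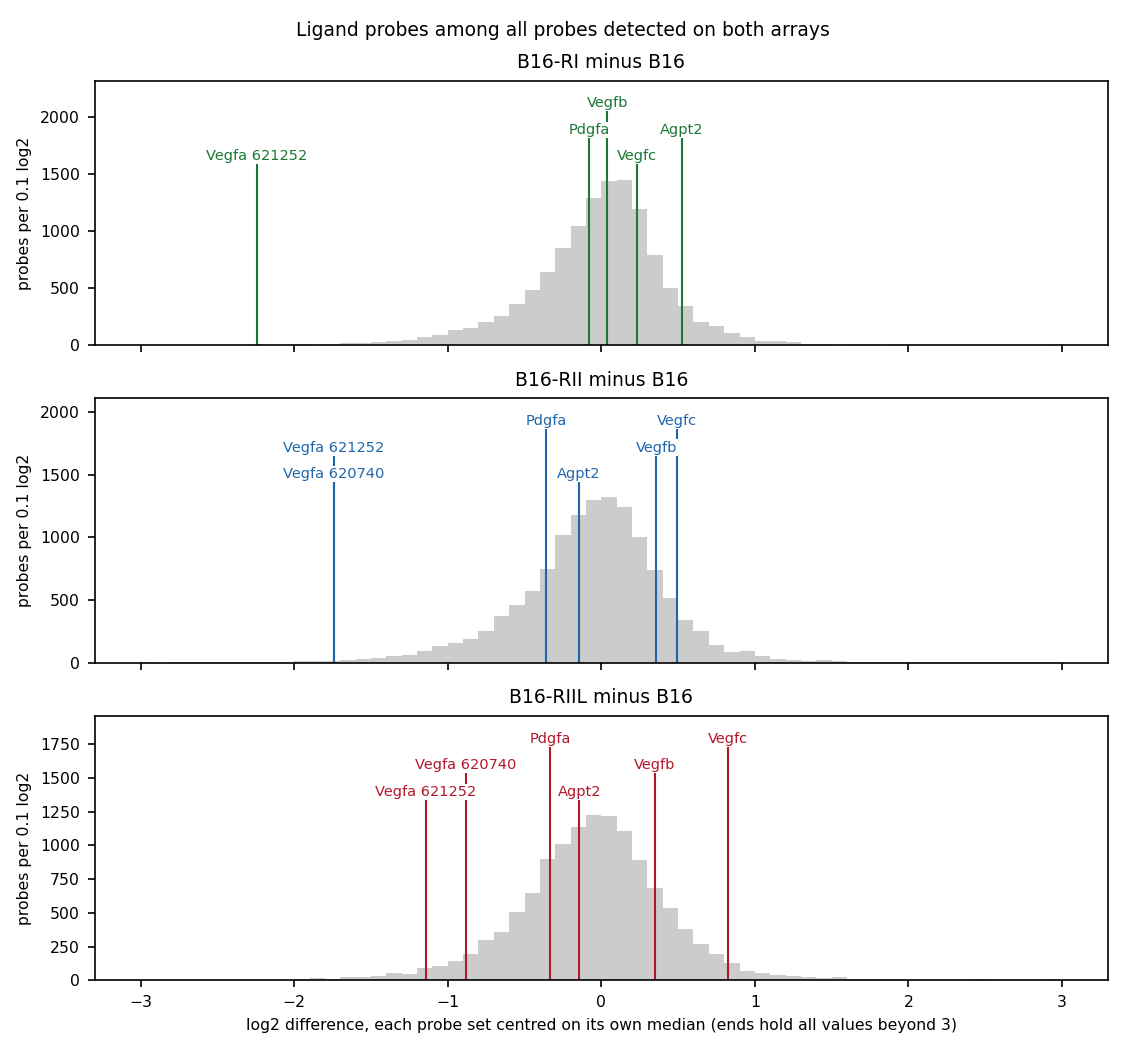
Number of probes detected on both arrays (vertical axis) by their log2 difference from B16 with both probe sets centred (horizontal axis), in 1 panel per passaged line. Coloured lines mark the ligand probes measured on both arrays. On this scale Vegfa probe 621252 lies at -2.24 in B16-RI, -1.74 in B16-RII and -1.14 in B16-RIIL, and Vegfc at 0.23, 0.49 and 0.83.

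As a group the ligands were not shifted in 1 direction. By 1 probe per gene, the median log2 difference from B16 was 0.04 over 5 genes in B16-RI, 0.28 over 5 in B16-RII and 0.37 over 6 in B16-RIIL. The medians over all genes detected on at least 1 of the arrays compared were 0.20, 0.44 and 0.26. On this scale the ligand medians lay below that of all genes in B16-RI and B16-RII and above it in B16-RIIL. The median in B16-RIIL includes Fgf2, which was detected there alone. Over the ligand genes detected on all 4 arrays it was 0.36. The side turned with the scaling in B16-RII and not in B16-RIIL. In B16-RII the ligand median was 0.09 with quantile normalization, where that of the probes detected on every array was -0.01. In B16-RI it was about level with that of these probes with centred probe sets, at 0.04 against 0.03, and lower under every other scaling. At most 6 genes stand behind each median.

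Of 62 other genes of these pathways, 59 were on the array. By their brightest probe, 28 were detected on B16 or B16-RI, and of these 1 was called above B16 and 4 below, where the shares over all genes were 8.00% and 6.95%. For B16-RII 31 were detected, 5 above and 4 below, against 12.1% and 5.45% of all genes, and for B16-RIIL 34 were detected, 8 above and 3 below, against 11.7% and 5.94%. These counts are on the deposited scale. In B16-RII those above fell to 3, 1 and 0 with quantile normalization, 75th percentile scaling and centred probe sets, and 7 were below with 75th percentile scaling. The genes above B16 in B16-RIIL were mostly dim, and of them Nrp2 and Met were detected on every array. Between the lines of round 2, 32 were detected, with 6 higher and 2 lower in B16-RIIL than in B16-RII, against 5.62% and 7.42% of all genes.

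Of the 14 receptor genes, 5 were detected in at least 1 line. Flt1, Kdr, Flt4, Tek, Tie1, Pdgfra, Fgfr1, Fgfr2 and Fgfr4 were detected in none, so the main receptors of the VEGF ligands and of angiopoietin were under the limit in these melanoma cells. Met, the receptor of Hgf, had a normalized signal of 3.42 in B16, 3.38 in B16-RI, 8.92 in B16-RII and 11.9 in B16-RIIL. It was alike in B16 and B16-RI on the deposited scale and higher in both lines of round 2, 2.61-fold and 3.47-fold B16. Over the 5 scalings its log2 difference lay between 0.96, under the 2-fold limit, and 1.53 in B16-RII and between 1.27 and 1.84 in B16-RIIL. Nrp2, the co-receptor for VEGF-C, had a normalized signal of 5.93 in B16, 12.7 in B16-RI, 10.7 in B16-RII and 12.7 in B16-RIIL. All passaged lines were above B16, at 2.14-fold, 1.80-fold and 2.14-fold by this probe. Over the scalings its log2 difference went down to 0.70, 0.42 and 0.58, so the 2-fold call in B16-RI and B16-RIIL depended on the scaling. The other probes of Nrp2 were not detected on any array. Nrp1, the co-receptor for VEGF-A, was at 1.19-fold, 1.14-fold and 1.44-fold B16 and its direction turned with the scaling in B16-RI and B16-RII.

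Among 12 related ligands, 6 were detected in at least 1 line. Adm, the gene of the vessel-acting peptide adrenomedullin, had a normalized signal of 12.8 in B16, 8.68 in B16-RI, 6.81 in B16-RII and 12.5 in B16-RIIL. It was lowest in B16-RI and B16-RII, with log2 differences of -0.56 and -0.91, and in B16-RIIL it was at -0.03, with values from -0.55 to 0.02 over the scalings. Apln, which encodes the vascular peptide apelin, was not detected on B16 and was at least 2.24-fold higher in B16-RII and 2.81-fold higher in B16-RIIL on the deposited scale. Over the 5 scalings its bound went down to 0.74 and 0.97 log2 units, so both 2-fold calls depended on the scaling. Pdgfd, Fgf1 and Mst1 were detected in B16-RIIL alone, like Fgf2, with an S/N of 4.51, 3.28 and 4.03. They were at least 2.65-fold, 3.01-fold and 3.04-fold above B16. Each of these S/N values was under 5, as was that of Fgf2.

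Of 13 genes that process the ligands or restrain this, 11 were on the array. Furin and Pcsk7, convertases that can cut pro-VEGF-C, were detected in every line and differed from B16 by at most 1.46-fold on the deposited scale. Over the 5 scalings the log2 difference of Furin went down to -0.81 in B16-RI and -0.74 in B16-RII, still within the 2-fold limit. Plat, tissue plasminogen activator, which can activate PDGF-C, had a normalized signal of 3.52 in B16 and 2.18 in B16-RIIL and was not detected in B16-RI or B16-RII. B16 was at least 7.33-fold above B16-RI, at least 5.59-fold above B16-RII and 1.61-fold above B16-RIIL. Plg, plasminogen, was detected in B16 and B16-RI at 2.32 and 2.43, and B16 was at least 3.46-fold above B16-RIIL. Hpn, hepsin, a protease that can activate pro-HGF, was not detected on B16 and was at least 2.24-fold higher in B16-RII and 2.94-fold higher in B16-RIIL. Its inhibitors Spint1 and Spint2 were each detected on 1 array, Spint1 in B16-RII at least 2.50-fold above B16 and Spint2 in B16-RIIL at least 3.24-fold above B16. Their S/N was 4.35 and 4.50. Over the 5 scalings the bounds in B16-RII went down to 0.64 log2 units for Hpn and 0.81 for Spint1, so these calls depended on the scaling.

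Of 13 genes of ligand binding and inhibition, 12 were on the array and 6 were detected. Sdc4, a heparan sulfate proteoglycan that serves as a co-receptor for Fgf2, had a normalized signal of 9.15 in B16, 17.2 in B16-RI, 24.0 in B16-RII and 7.72 in B16-RIIL. It was thus higher in both lines from lymph nodes than in B16, 1.88-fold and 2.62-fold, and not in the line from lung. The 2-fold call in B16-RII depended on the scaling, with log2 differences from 0.82 to 1.39. Vash1 (listed as G630009D10Rik), an inhibitor of angiogenesis, was detected at 1.09 in B16 and 1.73 in B16-RIIL, and B16 was at least 2.53-fold above B16-RI and 2.27-fold above B16-RII. Its S/N on B16 was 3.04, just over the limit. Sdc1, Sdc2, Sdc3 and Gpc1 did not reach 2-fold in any line, and Thbs1, Thbs2, Sema3a, Sema3f and Col18a1 were not detected.

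All 10 upstream regulators were detected on at least 1 array. Hif1a, the oxygen-regulated factor that drives Vegfa under hypoxia, had a normalized signal of 55.9 in B16, 55.3 in B16-RI, 67.4 in B16-RII and 51.2 in B16-RIIL. The log2 differences were -0.02, 0.27 and -0.13, and over the 5 scalings they reached -0.29, -0.42 and -0.45, so the direction in B16-RII turned. Egln3, a prolyl hydroxylase that marks Hif1a for decay and is itself induced by it, was detected on B16 alone, at 2.22 with an S/N of 3.21. B16 was at least 3.0-fold above B16-RI, 5.69-fold above B16-RII and 2.44-fold above B16-RIIL. Egln1, of the same family, went the other way in the lines of round 2. It was detected on every array and was 1.87-fold B16 in B16-RII and 1.40-fold in B16-RIIL, above 0 under all 5 scalings. Hif1an (listed as A830014H24Rik), which encodes the asparaginyl hydroxylase that inhibits the factor, had a normalized signal of 2.90 in B16, 1.38 in B16-RI, 1.42 in B16-RII and 1.05 in B16-RIIL, the last not detected. B16 was 2.10-fold and 2.04-fold above the first pair and at least 2.76-fold above B16-RIIL. Myc was at 0.95 log2 units above B16 in B16-RIIL, and between 0.43 and 1.00 over the scalings, on either side of the 2-fold limit. For Egln3 and Hif1an the direction was the same under all 5 scalings.

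**Figure D4:**
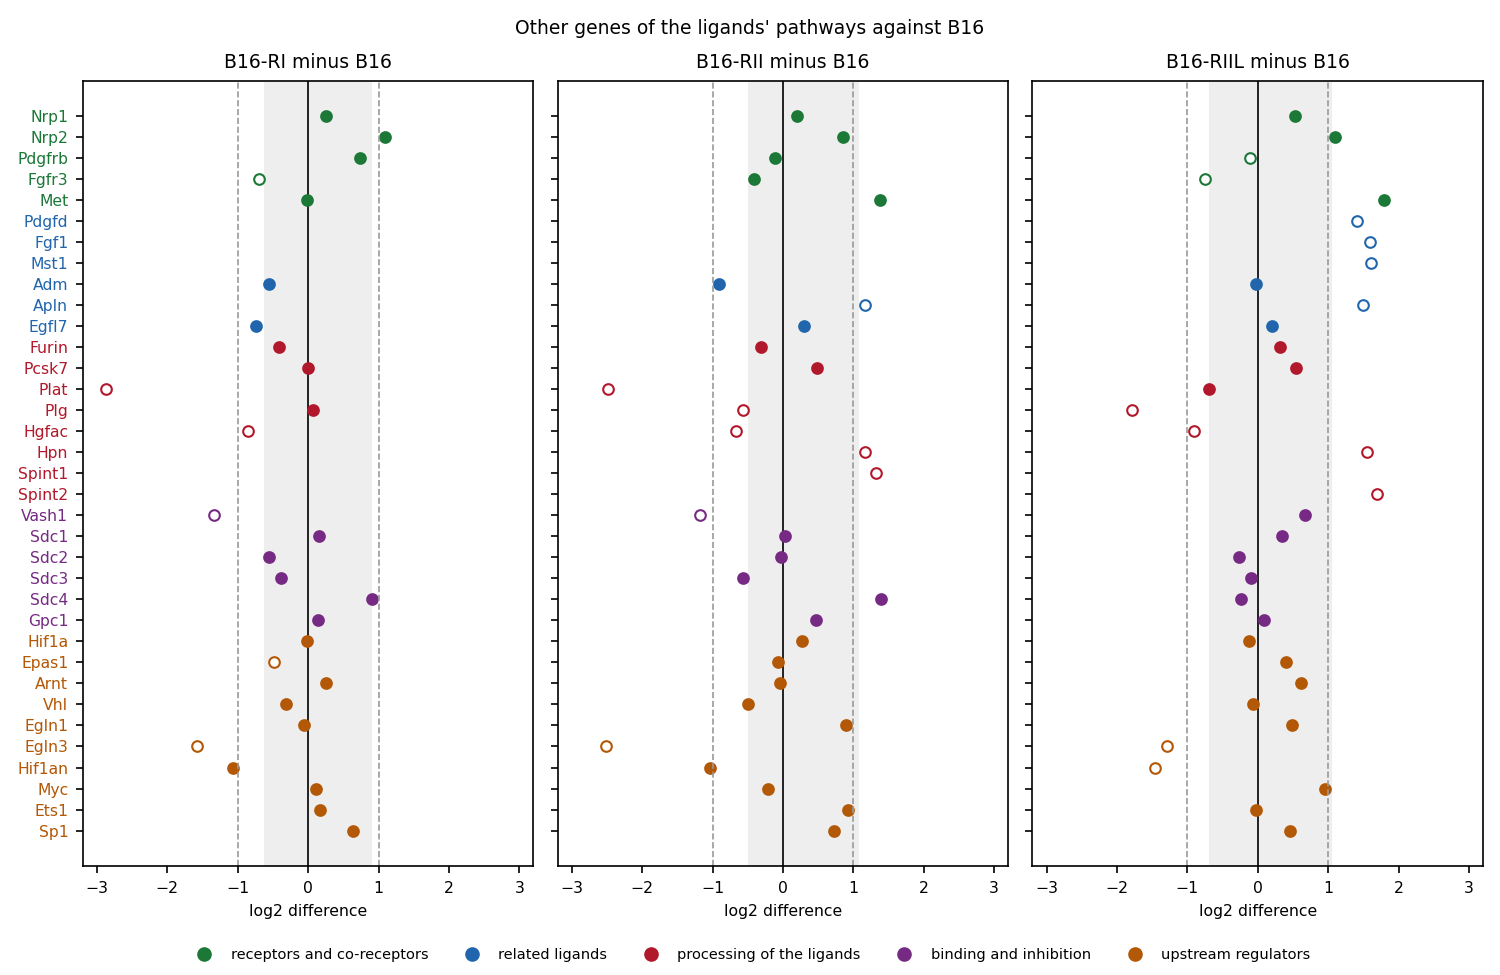
Log2 difference from B16 (horizontal axis) of the pathway genes detected on at least 1 array (vertical axis), coloured by list, with 1 panel per passaged line. Filled points were detected on both arrays and open points are nominal bounds. Dashed lines mark 2-fold, and the grey band holds the central 90% of all probes detected on both arrays. Met is to the right of the band in B16-RII and B16-RIIL. Plat, Egln3 and Hif1an are to the left of it in each panel, Plat only just so in B16-RIIL.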

How the data were processed

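Labelled cRNA from 500 ng of total RNA per line was read by chemiluminescence on Applied Biosystems whole-genome mouse arrays. For every probe the authors deposited a raw and a normalized intensity, together with a signal-to-noise score and an error flag score of the analyzer. The deposited normalized intensity was found to be the raw signal divided by 1 of 2 constants per array, and not quantile normalized as the methods state. Of the table, 30 columns of second arrays, which match no labelled sample, and 14 columns that the authors computed from the 4 arrays (log2 values and ratios) were set aside.

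Log2 of the normalized signal was taken with no pseudocount. A call required 2-fold and detection on the brighter array. An undetected signal was set to the higher of itself and the lowest detected signal of its array, and the ratio written as at least N-fold. That floor is not the detection limit of the probe, so these bounds are nominal. The probes of the members, Agpt, and pathway genes at least 2-fold from B16 in any line were named, by the brightest of a gene's probes, and others named were chosen after their values were seen. The members and lists were chosen with earlier results of these data known. Alternatives were 4 other scalings, S/N limits of 2 and 5, no filter, detection on every array, 1.5-fold and 4-fold, and other probe choices. Symbols were matched through RefSeq (16186 of 17302 probes). The number of arrays limits precision. Counting was tested on simulated data. Python 3.11.15, numpy 2.4.6, pandas 2.3.3 and matplotlib 3.10.9 were used.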

Additional observations from a re-analysis of the deposited data

How the results depend on the processing

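No paired analysis was possible because the arrays used were 1 per line, which also left no replicate to omit. The methods describe biological duplicates, and the table holds second arrays, but these match no labelled sample and were not used here. Over 40 results, 186 of 240 alternative values stayed within 1.5 times the reported value and 0 reversed a call. Differences near 0 could turn sign within this limit, as that of Agpt2 in B16-RII did, from 0.279 to -0.148 with centred probe sets. A reversal needed a called difference to change sign, so counts could not reverse. Causes were not tested unless the alternative's construction gives them.

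Ligand probes at least 2-fold below B16 in B16-RI numbered 2, not 1, with 75th percentile scaling, median scaling and quantile normalization. In B16-RIIL there was 1, not 0, with quantile normalization, 75th percentile scaling and centred probe sets. With quantile normalization the log2 difference in B16-RII was 0.087 for Vegfb, 0.328 for Vegfc and -0.575 for Pdgfa. By construction, at 1.5-fold 1 ligand probe was above and 2 below B16 in B16-RI, 2 above in B16-RII, 2 above and 2 below in B16-RIIL, and 2 above B16-RII in B16-RIIL. At 4-fold 0 were left in each of these. An S/N of at least 5 or detection on all 4 arrays left 0 above B16 or above B16-RII in B16-RIIL, and detection on all 4 arrays left 1 below B16 in B16-RII. Without a filter 1 was above in B16-RI and 2 in B16-RIIL.

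Pathway genes above B16 in B16-RI numbered 0, not 1, with quantile normalization, 75th percentile scaling and centred probe sets. In B16-RII they numbered 3, 1 and 0, not 5, and 7, not 4, were below with 75th percentile scaling. Filters and size limits changed the counts by construction. With an S/N of at least 5, 2 were below in B16-RI, 2 above and 2 below in B16-RII and 4 above in B16-RIIL. Detection on all 4 arrays left 0 below in each line, and 2 above in B16-RII and 2 in B16-RIIL. Without a filter 7 were above in B16-RI and 7 below in B16-RII. At 1.5-fold 4 were above and 7 below in B16-RI, 9 above in B16-RII and 6 below in B16-RIIL. At 4-fold 0 were above in each line, and 1, 2 and 0 below in B16-RI, B16-RII and B16-RIIL. Signal over background limits the dim probes, whose ratios are nominal bounds.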
